A study of Homo sapiens with 6 samples.

Results

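The translation initiation factor genes were followed in KYSE150 cells, an established human esophageal squamous cell carcinoma (ESCC) line, by RNA sequencing. They were taken as the protein-coding genes whose symbol begins with EIF, without the EIF2AK kinases, genes of the Y chromosome and pseudogenes. This gave 51 genes of the 67140 identifiers in the table, and 49 of them (96.08%) passed the filter on low counts, against 19254 of all identifiers. The study asked which transcripts change when the long noncoding RNA AC007128.1 is targeted. One group of 3 samples carried a control hairpin (shCtrl), and the other group of 3 samples carried a hairpin against that lncRNA (shAC007128.1). All 6 samples were the same line, made stable with lentivirus and puromycin and kept in RPMI 1640 with 10% serum, and each group rests on 1 hairpin. The labels do not say that samples of a group were separate cultures, so p-values measure the spread between these samples, which may be technical.

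Initiation factors bring the initiator tRNA, the small ribosomal subunit and a capped mRNA together, move the complex to the start codon and let the large subunit join. The cap is bound by eIF4E, which is held by the scaffold eIF4G together with the helicase eIF4A, while eIF2 carries the initiator tRNA with GTP and eIF3 bridges the mRNA complex and the small subunit. In squamous carcinomas and many other tumors this step is controlled by mTORC1, through the eIF4E-binding proteins, and by the kinases that phosphorylate eIF2.

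Total counts were between 65140326 and 78610457 in shCtrl and between 55764405 and 60158244 in shAC007128.1, so that 3 counts, taken as the smallest detectable level, stand for 0.0373 to 0.0546 CPM. CPM is a gene's count relative to the total count of its sample, scaled by edgeR's TMM factors. The targeted lncRNA, listed as ENSG00000229970, was measured at 0.943, 0.410 and 0.781 CPM in shCtrl and 0.320, 0.674 and 0.258 CPM in shAC007128.1, and its groups overlapped (log2 fold change -0.77 ± 0.51, standard error, adjusted p = 0.271, edgeR). These values rest on only 15 to 69 counts per sample. The paper reports from qPCR that its hairpin lowered this lncRNA. Of the 10 squamous markers, 9 had a mean of at least 34.9 CPM in shCtrl, and the exception was SOX2 at 0.434 CPM. In shAC007128.1, 6 of them were higher, from 1.16-fold for CDH1 to 5.49-fold for KRT6A and 10.6-fold for SOX2, 1 was lower (DSG3, at 47.0% of shCtrl) and 3 did not pass. The fibroblast markers COL1A2, COL3A1 and DCN and the immune markers PTPRC and MS4A1 had group means of at most 0.106 CPM. Other markers of these lists stood higher: COL1A1 had means of 13.9 CPM in shCtrl and 17.5 CPM in shAC007128.1, LUM 1.07 and 4.71 CPM (adjusted p = 0.00193, called higher) and PDGFRB 0.470 and 0.154 CPM (adjusted p = 0.0474, called lower). CD3E had means of 0.463 and 0.707 CPM (adjusted p = 0.394) and CD14 of 0.228 and 0.144 CPM (adjusted p = 0.514). The summed level of the 3 endothelial markers was 2.12 to 3.11 CPM in shCtrl and 0.302 to 2.02 CPM in shAC007128.1. Summed levels of the 6 fibroblast markers were 15.3 to 16.1 and 20.9 to 23.9 CPM, and those of the 5 immune markers 59.3 to 68.3 and 14.7 to 24.0 CPM, nearly all of it CD68, which epithelial cells also express. All 10 proliferation markers were higher in shAC007128.1, and their summed level was 997 to 1055 CPM in shCtrl and 2489 to 2529 CPM in shAC007128.1. The part of proliferation and of these marker changes in the results was not tested. Replicate 3 of shAC007128.1 stood apart from the other two samples of its group, with 9.72% of its counts from mitochondrial genes against 7.68% and 7.80%, while shCtrl had 9.69% to 10.2%.

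The stretches before the start sites are printed for the members around which the results turn: the 3 scaffold genes, which were all higher, the cap-binding gene EIF4E, and EIF1, which moved the other way. Each is 250 bases long, ends at the base before the annotated start, reads 5′ to 3′ on the gene's strand and comes from RefSeq on GRCh38.p14. Capitals mark CACGTG, the E-box bound by factors of the MYC type, which is the same on both strands. EIF4G1 lies at chr3:184314356-184314605 on the plus strand, EIF4G2 at chr11:10808927-10809176 on the minus strand, EIF4G3 at chr1:21176898-21177147 on the minus strand, EIF4E at chr4:98929134-98929383 on the minus strand and EIF1 at chr17:41688635-41688884 on the plus strand.
EIF4G1: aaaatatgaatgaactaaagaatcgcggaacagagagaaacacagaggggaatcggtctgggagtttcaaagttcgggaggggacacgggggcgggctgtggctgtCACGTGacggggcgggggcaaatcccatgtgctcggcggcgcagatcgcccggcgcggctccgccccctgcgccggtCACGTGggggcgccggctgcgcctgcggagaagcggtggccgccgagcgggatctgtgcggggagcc
EIF4G2: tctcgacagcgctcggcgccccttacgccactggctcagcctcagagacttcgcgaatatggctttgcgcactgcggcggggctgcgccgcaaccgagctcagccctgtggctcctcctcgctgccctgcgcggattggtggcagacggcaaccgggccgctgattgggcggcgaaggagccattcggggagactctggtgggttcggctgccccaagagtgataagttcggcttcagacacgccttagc
EIF4G3: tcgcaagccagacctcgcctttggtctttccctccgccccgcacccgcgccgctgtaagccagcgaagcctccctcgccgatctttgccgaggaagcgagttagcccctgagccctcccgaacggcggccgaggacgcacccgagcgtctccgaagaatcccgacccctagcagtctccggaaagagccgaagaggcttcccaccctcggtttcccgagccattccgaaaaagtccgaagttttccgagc
EIF4E: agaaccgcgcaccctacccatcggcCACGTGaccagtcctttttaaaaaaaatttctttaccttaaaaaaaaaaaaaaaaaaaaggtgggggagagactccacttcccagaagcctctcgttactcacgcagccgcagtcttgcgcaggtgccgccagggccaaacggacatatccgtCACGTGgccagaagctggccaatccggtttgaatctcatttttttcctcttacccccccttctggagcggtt
EIF1: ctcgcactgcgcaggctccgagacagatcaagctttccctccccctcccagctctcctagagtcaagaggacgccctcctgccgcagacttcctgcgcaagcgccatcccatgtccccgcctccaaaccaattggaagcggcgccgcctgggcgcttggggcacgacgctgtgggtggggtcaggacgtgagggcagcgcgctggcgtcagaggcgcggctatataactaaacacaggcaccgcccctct
The E-boxes of EIF4G1 begin 144 and 67 bases before its start, and those of EIF4E begin 225 and 72 bases before it. The windows of EIF4G2, EIF4G3 and EIF1 hold none.

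With the hairpin against AC007128.1, the members that passed as higher included EIF4E, the 3 eIF4G genes, EIF5A and EIF5A2, and those that passed as lower included EIF4EBP1, EIF1, 2 genes of eIF2 and 4 of eIF3. In edgeR's quasi-likelihood test, 14 of the 49 tested members (28.57%) were higher at an adjusted p of at most 0.05, where 21% of all genes tested were higher. Another 8 members (16.33%) were lower, against 19.8% of all genes, and 27 did not pass. All members are protein-coding, and of the 13591 protein-coding genes tested 3708 were higher and 2844 lower. Of these, 48.2% passed in either direction, against 44.9% of members. The changes of members were small: those that were higher rose 1.18- to 1.60-fold, and those that were lower fell to between 57.8% and 83.5% of shCtrl. No member that passed also had the fold of 2 that the study required, so 0 were called higher and 0 lower, where 5.57% and 10.1% of all genes were called. DESeq2 and limma-voom also called 0, and at an unadjusted p under 0.05 and a fold of 2 the count was 0 with each of the 3 tools (29, 27 and 29 members had an unadjusted p under 0.05 with edgeR, DESeq2 and limma-voom). The 2 groups of samples did not overlap in 34 of 49 members (69.39%), in 55.2% of all genes and in 8300 of the 13591 protein-coding genes. Of those protein-coding genes, 877 were called higher and 1199 lower.

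The median log2 fold change was 0.08 over the 49 members, 0.04 over protein-coding genes and -0.02 over all genes. With libraries scaled by their totals alone the medians of members and of all genes were 0.0043 and -0.098. The median size of the log2 fold change was 0.26 in members, 0.46 in protein-coding genes and 0.51 in all genes. Members are abundant transcripts, with a median of 173 CPM against 12.4 CPM in all genes. Their standard errors were smaller (median 0.083 against 0.188). Among the 2260 genes between 100 and 1000 CPM, 39.9% were higher and 19.2% lower, while the 32 members in that range had 25% in each direction. The median size of the log2 fold change in that range was 0.37 in all genes and 0.25 in members. Summed, the members took 1.18% to 1.19% of all counts in shCtrl and 1.17% to 1.21% in shAC007128.1. Of the 22 members that passed, 12 (9 higher and 3 lower) also passed in each of 17 alternative analyses, and each of the other 10 lost its call in at least 1 of them. None of the 22 changed direction in any of the 17. These 17 leave out edgeR's glmTreat, a stricter test against a fold of 1.5, which 0 members passed. Where single genes are followed over all alternatives, these 17 are meant. Among members that had not passed, EIF2D (0.22, adjusted p = 0.0455) and EIF3K (-0.19, adjusted p = 0.0321) passed without shAC007128.1 replicate 3, EIF4EBP2 (0.17, adjusted p = 0.0383) and EIF3J (-0.25, adjusted p = 0.0178) with the GC correction, and EIF4E3 with DESeq2 and limma-voom (adjusted p = 0.0341 and 0.0416). Over all alternatives the adjusted p of these 5 genes ran up to 0.243, 0.541, 0.215, 0.869 and 0.329. All 22 also passed without replicate 3 of shAC007128.1, when 27 members passed. Without replicate 1 of shCtrl 14 members passed, and 3 of them were lower. Apart from EIF3L, overlaps with other annotated genes covered at most 17.9% of the exonic bases of a member that passed. As the RNA comes from whole cultures, fewer cells of a type and less RNA per cell cannot be told apart.

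**Figure D1:**
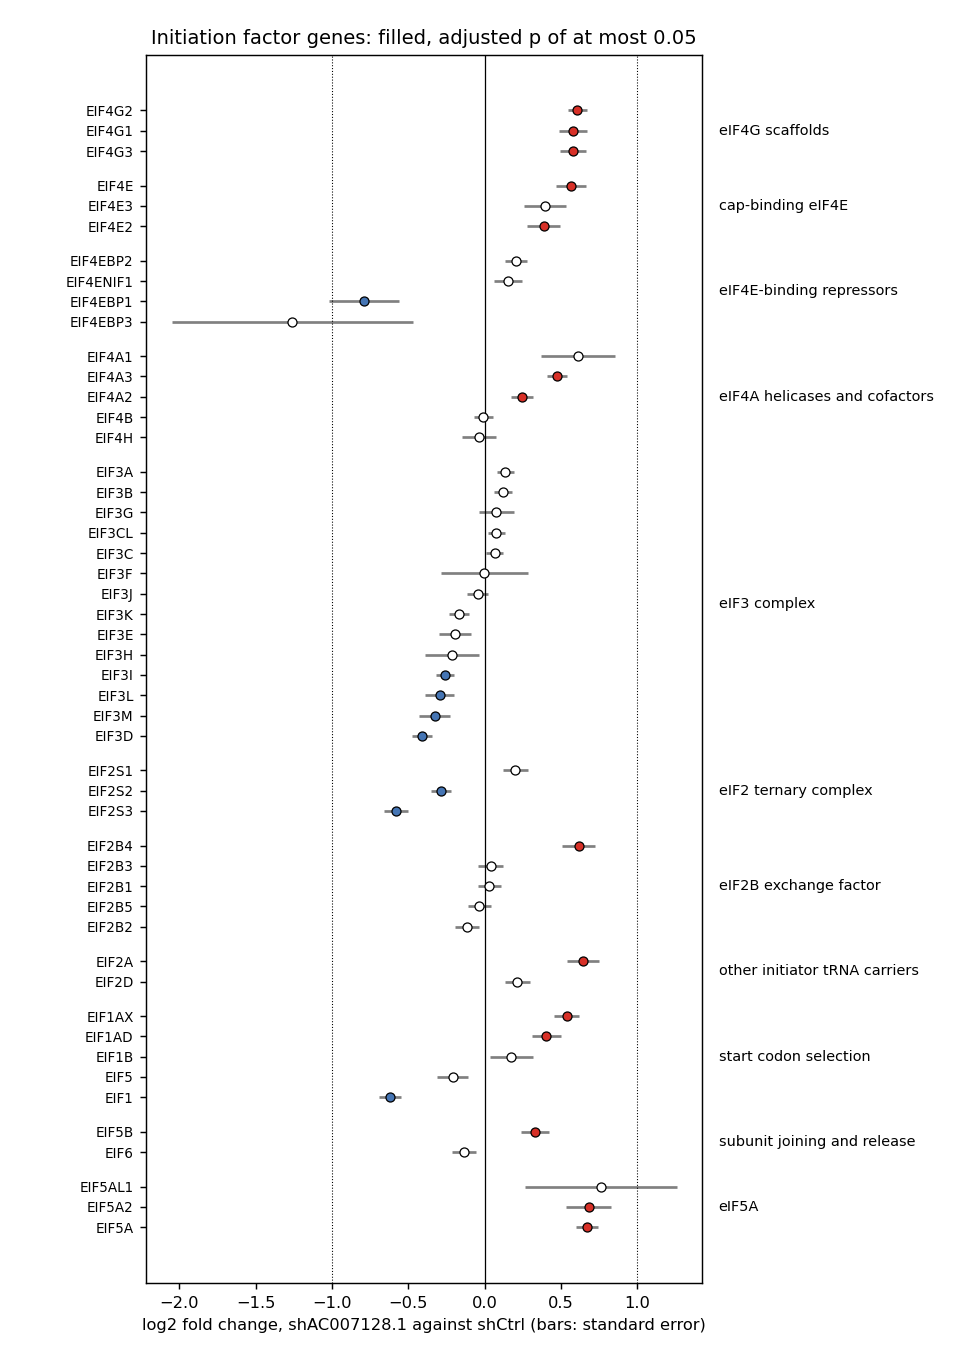
Log2 fold change of shAC007128.1 against shCtrl for the 49 tested initiation factor genes, grouped by role, with bars of 1 standard error from edgeR. Filled points passed at an adjusted p of at most 0.05 (red higher, blue lower), and dotted lines mark a fold of 2. The 3 eIF4G genes sit together near 0.6, and no filled point lies beyond a dotted line.

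All 3 scaffold genes of the eIF4G group were higher. Their log2 fold changes were close to each other in edgeR's test of all samples, but with the GC correction EIF4G1 was at 0.73 against 0.48 for EIF4G2 and 0.50 for EIF4G3, and a difference of EIF4G2 from the other two was not tested. EIF4G2 (ENSG00000110321, chromosome 11, 10797050 to 10808940, minus strand, hg38) encodes a scaffold that lacks the eIF4E-binding region, and it was measured at 557, 551 and 554 CPM in shCtrl and 839, 795 and 898 CPM in shAC007128.1. Its log2 fold change was 0.61 ± 0.06 (SE, adjusted p = 0.000339, edgeR). All 3 shAC007128.1 samples stood above all 3 shCtrl samples, which were close to each other. EIF4G1 (ENSG00000114867, chromosome 3, 184314495 to 184335358, plus strand) encodes the main scaffold, which also binds eIF4A, eIF3 and the poly(A)-binding protein. It was measured at 568, 594 and 543 CPM in shCtrl and 919.7, 890.3 and 735 CPM in shAC007128.1, a log2 fold change of 0.58 ± 0.09 (adjusted p = 0.00245). Replicate 3 of shAC007128.1 was the lowest of its group and still above shCtrl. EIF4G3 (ENSG00000075151, chromosome 1, 20806292 to 21177285, minus strand), the paralog of EIF4G1, was measured at 86.0, 88.1 and 85.4 CPM in shCtrl and 120.5, 124 and 143 CPM in shAC007128.1, a log2 fold change of 0.58 ± 0.09 (adjusted p = 0.00167). Here replicate 3 was the highest of its group. Per length, as TPM (counts over transcript length, scaled to the same sum in each sample), the mean level was 302 for EIF4G2, 217 for EIF4G1 and 28.0 for EIF4G3 in shCtrl. The same levels were 449.7, 317 and 40.8 in shAC007128.1, so the order of the 3 scaffolds was kept.

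Of the 3 tested cap-binding genes, 2 were higher. EIF4E (ENSG00000151247, chromosome 4, 98879276 to 98929133, minus strand), whose protein holds the cap for eIF4G, was measured at 43.8, 40.7 and 45.1 CPM in shCtrl and 58.4, 62.7 and 70.5 CPM in shAC007128.1. Its log2 fold change was 0.56 ± 0.10 (adjusted p = 0.00336), and the groups did not overlap. A correction for GC content lowered this value to 0.32, with the call kept. EIF4E2, whose product binds the cap without eIF4G and represses chosen mRNAs, was measured at 62.1, 61.6 and 55.2 CPM in shCtrl and 80.9, 84.9 and 68.1 CPM in shAC007128.1. It rose by 0.39 ± 0.11 (adjusted p = 0.0234), a call that ended in 7 of 17 alternatives, among them without any one of the 3 shCtrl samples or of shAC007128.1 replicates 1 and 2 (adjusted p over all alternatives 0.00347 to 0.0922). EIF4E3, an atypical cap binder, had a log2 fold change of 0.39 ± 0.14 (adjusted p = 0.0549). EIF4E1B, a paralog known from the germline, did not pass the filter, with 0 to 5 counts per sample.

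Of the 4 repressors of eIF4E, 1 was lower and 3 did not pass. EIF4EBP1 (ENSG00000187840, chromosome 8, 38030534 to 38060365, plus strand) encodes the protein that occupies eIF4E until mTORC1 phosphorylates it, and it was measured at 218, 211 and 209 CPM in shCtrl and 155, 137 and 77.7 CPM in shAC007128.1. This is 57.8% of shCtrl and, in edgeR's test of all samples, the largest fall among members that passed (log2 fold change -0.79 ± 0.23, adjusted p = 0.028). The groups did not overlap, but the shAC007128.1 samples were far from each other, and replicate 3 was far below the others. The call was lost without shCtrl replicate 1, 2 or 3 (adjusted p = 0.0757, 0.0691 and 0.0675), and over all alternatives the adjusted p ranged from 0.00119 to 0.0757. Without shAC007128.1 replicate 3 its value was -0.56, and with the GC correction it was -0.57, a smaller fall than those of EIF2S3 (-0.67 and -0.70) and EIF1 (-0.58 and -0.61). EIF4EBP2, its paralog, was measured at 74.1, 77.6 and 78.7 CPM in shCtrl and 85.4, 87.1 and 93.0 CPM in shAC007128.1 (log2 fold change 0.20 ± 0.07, adjusted p = 0.0614). Its groups did not overlap and its change did not pass. EIF4EBP3 was near the smallest detectable level at 0.150, 0.274 and 0.486 CPM in shCtrl and 0.0712, 0.255 and 0.0516 CPM in shAC007128.1 (log2 fold change -1.26 ± 0.79, adjusted p = 0.248), and 73.2% of its exonic bases are shared with the readthrough gene ANKHD1-EIF4EBP3. EIF4ENIF1, which carries eIF4E into the nucleus and into P-bodies, had a log2 fold change of 0.15 ± 0.09 (adjusted p = 0.236). Per length, EIF4EBP1 was at 532 in shCtrl and 300.4 in shAC007128.1, and EIF4E at 36.8 and 53.2.

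**Figure D2:**
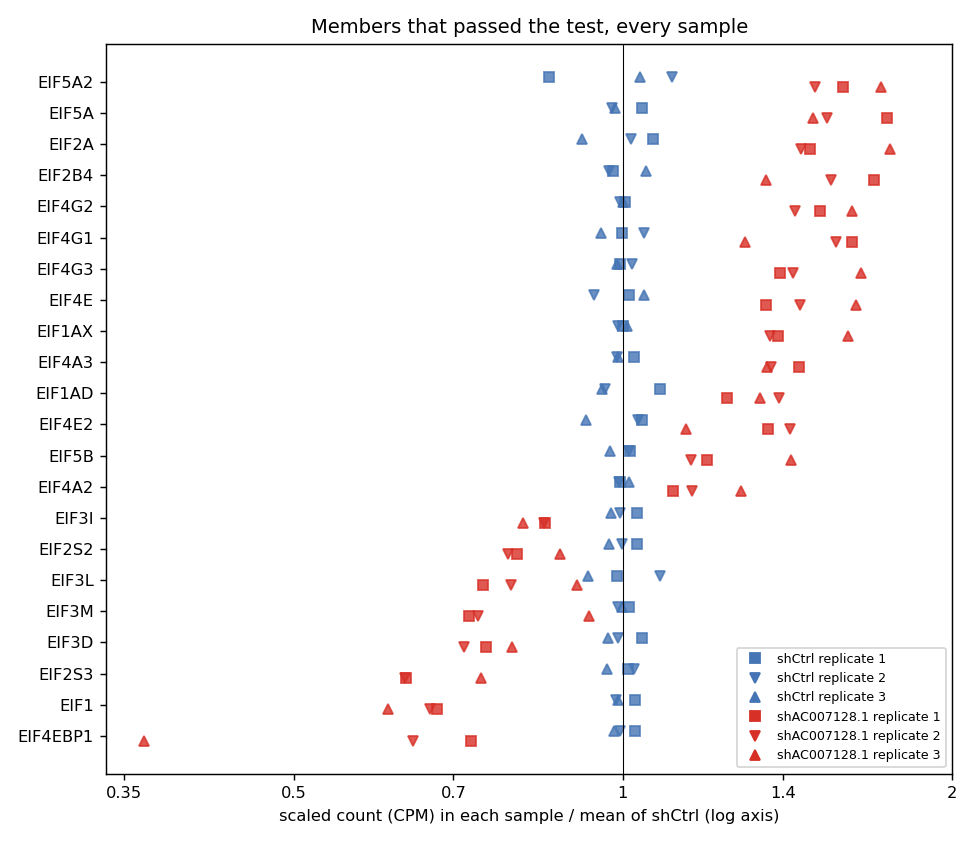
CPM in each of the 6 samples divided by the mean of shCtrl (log axis) for the 22 members that passed the test, with shCtrl in blue and shAC007128.1 in red and the replicates by symbol. EIF4EBP1 shows the widest red spread, from 155 to 77.7 CPM, while the 3 red points of EIF3I sit between 368 and 385 CPM.

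Of the eIF4A helicases and their cofactors, 2 of 5 passed, both higher. EIF4A3 (ENSG00000141543, chromosome 17, 80134369 to 80147151, minus strand), a core protein of the exon junction complex, was measured at 137, 132 and 133 CPM in shCtrl and 194, 183 and 181 CPM in shAC007128.1. It rose by 0.47 ± 0.06 (adjusted p = 0.00114), with little spread in either group. EIF4A2 was measured at 313, 312 and 319 CPM in shCtrl and 349.8, 364 and 404 CPM in shAC007128.1, a log2 fold change of 0.24 ± 0.07 (adjusted p = 0.0295). This call ended in 9 of 17 alternatives, among them the correction for GC content, where the value was 0.06 (adjusted p over all alternatives 0.0138 to 0.401). EIF4A1, the main helicase of cap-dependent initiation, varied within shCtrl itself, at 157, 324 and 245 CPM in shCtrl and 410.4, 380.0 and 318 CPM in shAC007128.1 (log2 fold change 0.61 ± 0.24, adjusted p = 0.0826). The groups overlapped. It passed with DESeq2 (adjusted p = 0.0282) and without shCtrl replicate 2 (0.87, adjusted p = 0.0235), and without shCtrl replicate 1 its value was 0.37 (adjusted p over all alternatives 0.0235 to 0.197). 47.4% of its exonic bases are shared, chiefly with the readthrough gene SENP3-EIF4A1, which was measured at 305, 82.8 and 137 CPM in shCtrl and 109, 117 and 85.0 CPM in shAC007128.1. The shCtrl sample lowest in EIF4A1 was the highest in the readthrough gene. Summed, the 2 genes had 462, 407 and 382 CPM in shCtrl and 519, 497 and 403 CPM in shAC007128.1, 113% of shCtrl (exact two-sided permutation test, p = 0.3, where 3 against 3 samples cannot go below 0.1). The cofactors EIF4B and EIF4H, which stimulate the helicase, had log2 fold changes of -0.01 ± 0.06 and -0.04 ± 0.11 (adjusted p = 0.915 and 0.821). EIF4H was at 690.3 CPM in shAC007128.1 replicate 3 and at 942 and 898 CPM in the other two.

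Of the eIF2 subunits, which carry the initiator tRNA, those for beta and gamma fell. EIF2S3 (ENSG00000130741, chromosome X, 24054946 to 24078810, plus strand), the gamma subunit that binds GTP and the tRNA, was measured at 524, 529.8 and 500.5 CPM in shCtrl and 328, 327 and 385 CPM in shAC007128.1. It fell to 66.9% of shCtrl (log2 fold change -0.58 ± 0.08, adjusted p = 0.00122), and all 3 treated samples lay well under the controls. EIF2S2, the beta subunit, was measured at 466, 452 and 439 CPM in shCtrl and 362, 355 and 396 CPM in shAC007128.1, which is 82.0% of shCtrl (log2 fold change -0.29 ± 0.07, adjusted p = 0.0117). Without shCtrl replicate 1 its adjusted p was 0.0538, at the upper end of a range from 0.00101. EIF2S1, the alpha subunit on which the stress kinases act, was measured at 174, 171 and 172 CPM in shCtrl and 187, 186 and 220.3 CPM in shAC007128.1 (log2 fold change 0.20 ± 0.08, adjusted p = 0.0937). Its groups did not overlap, but the test was not passed, and the value was 0.11 without shAC007128.1 replicate 3 and 0.0064 with the GC correction (adjusted p = 0.923, where its alternatives began at 0.0654). Per length, the beta, gamma and alpha subunits were at 366, 309.8 and 85.7 in shCtrl and at 294, 203 and 96.4 in shAC007128.1. EIF2S3B, a close copy of EIF2S3, did not pass the filter, with 0 to 3 counts per sample.

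Of the 5 subunits of eIF2B, the exchange factor that reloads eIF2 with GTP, EIF2B4 passed. EIF2B4 (ENSG00000115211, chromosome 2, 27364352 to 27370338, minus strand), the delta subunit, was measured at 23.8, 23.7 and 25.6 CPM in shCtrl and 41.3, 37.7 and 32.9 CPM in shAC007128.1. It rose 1.53-fold (log2 fold change 0.62 ± 0.11, adjusted p = 0.00381), and the groups did not overlap. EIF2B2, the beta subunit, was measured at 61.8, 58.4 and 62.4 CPM in shCtrl and 58.9, 55.4 and 54.2 CPM in shAC007128.1 (log2 fold change -0.12 ± 0.08, adjusted p = 0.272). EIF2B1, EIF2B3 and the catalytic subunit EIF2B5 had log2 fold changes of 0.03, 0.04 and -0.03, each smaller than its standard error, and these signs flipped with the scaling, the filter or the GC correction. The other 2 carriers of initiator tRNA are not subunits of eIF2. EIF2A (ENSG00000144895, chromosome 3, 150546678 to 150586016, plus strand) was measured at 66.2, 63.2 and 57.0 CPM in shCtrl and 92.2, 90.4 and 109 CPM in shAC007128.1 and rose 1.56-fold (log2 fold change 0.65 ± 0.10, adjusted p = 0.00247). EIF2D was measured at 34.2, 31.4 and 32.5 CPM in shCtrl and 38.7, 38.2 and 36.9 CPM in shAC007128.1 (log2 fold change 0.21 ± 0.08, adjusted p = 0.0736). Both were higher in each treated sample, and EIF2A passed.

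Of the 5 genes grouped under start codon selection, 2 were higher (EIF1AX and EIF1AD), 1 was lower and 2 did not pass. This grouping does not show that EIF1AD acts in this step. EIF1 (ENSG00000173812, chromosome 17, 41688885 to 41692668, plus strand), which keeps the scanning ribosome from stopping at poor start codons, was measured at 192, 185 and 185 CPM in shCtrl and 127, 125 and 114 CPM in shAC007128.1. It fell to 65.1% of shCtrl (log2 fold change -0.62 ± 0.07, adjusted p = 0.000511), with the groups well apart. Its paralog EIF1B was measured at 27.7, 29.2 and 29.2 CPM in shCtrl and 37.7, 26.1 and 33.4 CPM in shAC007128.1 (log2 fold change 0.18 ± 0.14, adjusted p = 0.36), and the groups overlapped. EIF1AX (ENSG00000173674, chromosome X, 20124525 to 20141838, minus strand), the partner of EIF1 in scanning, was measured at 139, 138 and 140.2 CPM in shCtrl and 193, 189.6 and 223 CPM in shAC007128.1. It rose 1.45-fold (log2 fold change 0.54 ± 0.08, adjusted p = 0.00186), with shCtrl samples nearly equal. The correction for GC content lowered that value to 0.30, with the call kept. EIF1AD, which carries a domain like that of eIF1A, was measured at 32.1, 28.6 and 28.4 CPM in shCtrl and 37.0, 41.3 and 39.7 CPM in shAC007128.1 (log2 fold change 0.40 ± 0.09, adjusted p = 0.0118). Without shCtrl replicate 2 or 3 its adjusted p was 0.0575 or 0.0566 (range over all alternatives 0.00147 to 0.0575). EIF5, which makes eIF2 hydrolyze its GTP at the start codon, had a log2 fold change of -0.21 ± 0.10 (adjusted p = 0.139). It passed as lower without shAC007128.1 replicate 3 (-0.32, adjusted p = 0.00769) and with the GC correction (-0.34, adjusted p = 0.00409), where its alternatives reached 0.334. Replicate 3 of shAC007128.1 was at 139.8 CPM, inside the shCtrl range of 134 to 149 CPM, and the other two were at 112 and 117 CPM.

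At subunit joining, EIF5B, the GTPase that brings the large subunit in, was measured at 202, 201 and 193 CPM in shCtrl and 237, 229 and 283 CPM in shAC007128.1. It rose by 0.33 ± 0.09 (adjusted p = 0.0236), a call that ended in 7 of 17 alternatives, among them the removal of any one shCtrl sample and the correction for GC content (log2 fold change 0.14). Over these alternatives the adjusted p ranged from 0.0072 to 0.109. EIF6, which keeps free large subunits from joining, was measured at 249, 239.5 and 243 CPM in shCtrl and 238, 229 and 199 CPM in shAC007128.1 (log2 fold change -0.13 ± 0.08, adjusted p = 0.227). Its groups did not overlap, yet its direction flipped with the GC correction.

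EIF5A (ENSG00000132507, chromosome 17, 7306999 to 7312463, plus strand), the hypusine-carrying factor that relieves stalled elongation and helps termination, was measured at 591, 555 and 559 CPM in shCtrl and 991, 872 and 848 CPM in shAC007128.1. It rose 1.59-fold (log2 fold change 0.67 ± 0.07, adjusted p = 0.000474), and the groups were well apart. EIF5A2, its rarer paralog, was measured at 6.08, 7.87 and 7.36 CPM in shCtrl and 11.3, 10.7 and 12.2 CPM in shAC007128.1 and rose 1.60-fold (log2 fold change 0.68 ± 0.15, adjusted p = 0.0088). The GC correction lowered its value to 0.43 (adjusted p = 0.0372), and over all alternatives the adjusted p ranged from 0.000248 to 0.0825. Per length, EIF5A was at 929 in shCtrl and 1445 in shAC007128.1, and EIF5A2 at 2.66 and 4.16. EIF5AL1, an intronless copy of EIF5A whose reads cannot be told from it with certainty, stayed between 0.137 and 0.437 CPM (log2 fold change 0.76 ± 0.50, adjusted p = 0.265).

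Of the 14 genes of eIF3, the largest initiation factor, 4 were lower, 0 were higher and 10 did not pass, with a median log2 fold change of -0.11. Thus 28.6% passed, all as lower, where 19.8% of all genes tested were lower. In either direction 48.2% of protein-coding genes tested passed. With the GC correction 3 eIF3 genes passed as higher (EIF3B, EIF3G and EIF3CL, at 0.26, 0.28 and 0.20), and without shAC007128.1 replicate 3 EIF3B passed as higher at 0.14 (adjusted p = 0.0363, where its alternatives reached 0.554). That 0 were higher thus depends on that step and on that sample. The GC correction also moved genes the other way. EIF3E (-0.38, adjusted p = 0.00114) and EIF3J (-0.25, adjusted p = 0.0178) passed as lower with it. EIF3D, EIF3M and EIF3I stayed lower, and EIF3L lost its call (adjusted p = 0.0887). EIF3D (ENSG00000100353, chromosome 22, 36510855 to 36529184, minus strand), the subunit that can bind the cap of chosen mRNAs, was measured at 320.2, 304 and 298 CPM in shCtrl and 231, 220.1 and 244 CPM in shAC007128.1. It fell to 75.3% of shCtrl (log2 fold change -0.41 ± 0.07, adjusted p = 0.00268) and passed in all 17 alternatives, which leave out glmTreat. EIF3I, which sits with EIF3B and EIF3G at the mRNA entry side, was measured at 468, 451 and 443 CPM in shCtrl and 385, 384 and 368 CPM in shAC007128.1. It fell to 83.5% (log2 fold change -0.26 ± 0.06, adjusted p = 0.00967), and without shCtrl replicate 1 its adjusted p was 0.0502, the highest of its alternatives, which began at 0.00162. Both subunits showed groups that did not overlap.

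EIF3M and EIF3L were lower in the same test with more spread. EIF3M was measured at 371, 362 and 366 CPM in shCtrl and 265, 270.1 and 341 CPM in shAC007128.1 (log2 fold change -0.33 ± 0.10, adjusted p = 0.0389). The call ended when any one of 5 samples, other than shAC007128.1 replicate 3, was left out, while the GC correction moved the value to -0.53 (adjusted p over all alternatives 0.000207 to 0.134). EIF3L was measured at 451, 494 and 424 CPM in shCtrl and 339.9, 361 and 414 CPM in shAC007128.1 (log2 fold change -0.30 ± 0.09, adjusted p = 0.0409), and 51.8% of its exonic bases overlap other genes, one of them on the opposite strand. Its call ended in 9 of 17 alternatives, among them without each of the same 5 samples, and the adjusted p ranged from 0.00673 to 0.14. In both genes replicate 3 of shAC007128.1 was the highest of its group and nearest to shCtrl. The same held for EIF3E, at 432, 423 and 422 CPM in shCtrl and 341, 339.7 and 435 CPM in shAC007128.1 (log2 fold change -0.19 ± 0.10, adjusted p = 0.177). Without that replicate EIF3E passed at -0.33 (adjusted p = 0.000679, where its alternatives reached 0.439), and with the GC correction it passed at -0.38 (adjusted p = 0.00114).

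The remaining eIF3 genes did not pass. EIF3H and EIF3K had log2 fold changes of -0.21 ± 0.18 and -0.17 ± 0.07 (adjusted p = 0.375 and 0.0842). The core subunits EIF3A and EIF3B had 0.13 ± 0.06 and 0.12 ± 0.06 (adjusted p = 0.0955 and 0.156), EIF3G had 0.08 ± 0.12 and the loosely bound EIF3J -0.05 ± 0.07. EIF3C and EIF3CL, near-identical genes between which the counting may have split reads, had 0.06 ± 0.05 and 0.08 ± 0.05. Their summed level was 1090.2, 1045 and 1034 CPM in shCtrl and 1117, 1101 and 1109.6 CPM in shAC007128.1, 105% of shCtrl (exact two-sided permutation test, p = 0.1, the smallest it allows). EIF3F was measured at 215, 122 and 217 CPM in shCtrl and 219.8, 213 and 120.4 CPM in shAC007128.1 (log2 fold change -0.0014, SE 0.29). It was low in 1 sample of each group, shCtrl replicate 2 and shAC007128.1 replicate 3, and the annotation gives it no overlapping gene.

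**Figure D3:**
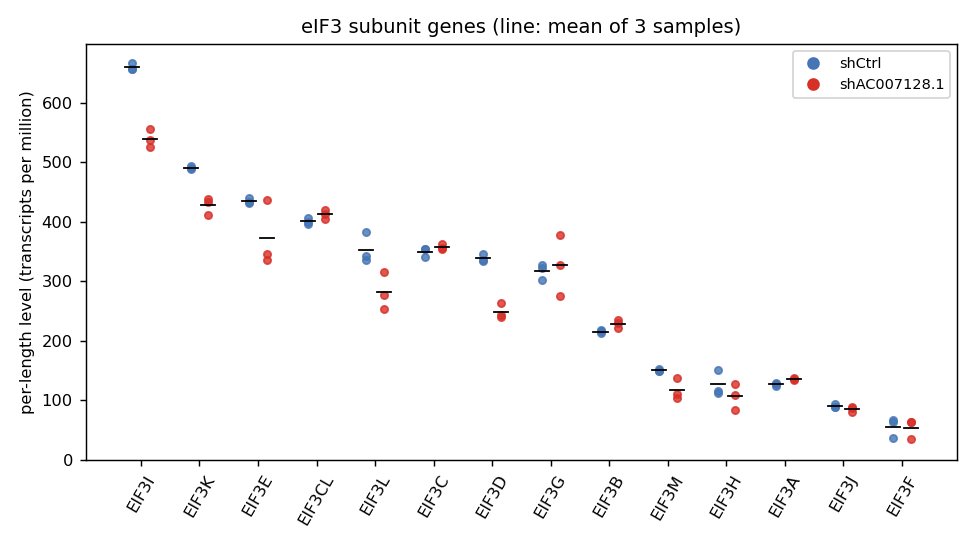
Level per transcript length (TPM) of the 14 eIF3 genes in each sample, with shCtrl in blue, shAC007128.1 in red and a line at each mean of 3 samples. EIF3I runs from 656 to 667 in shCtrl and from 525 to 555 in shAC007128.1, and EIF3F has 1 low sample in each group.

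The subunits of eIF3 join in equal numbers, but their transcripts did not stand at equal levels per length. Taken gene by gene, the mean per-length level in shCtrl ran from 55.2 for EIF3F to 660.3 for EIF3I. EIF3K and EIF3E followed EIF3I at 491 and 435, and in shAC007128.1 these 3 stood at 539, 427 and 372. EIF3D went from 338 to 249, and EIF3B from 215 to 229. EIF3C and EIF3CL, the near-identical genes, stood at 350 and 401 in shCtrl. As reads may be split between them, neither value stands for a whole subunit, and the order above is of genes, not subunits. These levels use 1 transcript length per gene (6920 bases for EIF3F and 772 for EIF3K) and do not account for isoforms. EIF3F also had 1 low sample in each group.

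Since 2 paralogs are measured in the same library, their ratio does not depend on the scaling. The log2 ratio of their unscaled counts was compared between groups in 6 pairs by exact two-sided permutation tests, which cannot go below p = 0.1 with 3 against 3 samples. The ratio of EIF4EBP1 over EIF4EBP2 was 1.56, 1.45 and 1.41 in shCtrl and 0.86, 0.65 and -0.26 in shAC007128.1, a difference of -1.06 (exact p = 0.1, adjusted p = 0.3). The ratio of EIF1 over EIF1B was 2.80, 2.66 and 2.66 in shCtrl and 1.75, 2.26 and 1.78 in shAC007128.1, a difference of -0.78 (exact p = 0.1, adjusted p = 0.3). In these 2 pairs the groups did not overlap. The ratio of EIF4A1 over EIF4A2 differed by 0.42 (exact p = 0.2, adjusted p = 0.4) and that of EIF4E over EIF4E2 by 0.18 (exact p = 0.5, adjusted p = 0.75). For EIF5A over EIF5A2 the ratio was 6.60, 6.14 and 6.25 in shCtrl and 6.46, 6.35 and 6.12 in shAC007128.1, a difference of -0.02 (exact p = 0.9, adjusted p = 1). For EIF4G1 over EIF4G3 the means were 2.71 in both groups (exact p = 1, adjusted p = 1), with the shAC007128.1 samples more spread than shCtrl, and without replicate 3 of shAC007128.1 the ratio differed by 0.17. Both genes of these last 2 pairs had risen, and a difference between them was not detectable with 3 samples a group.

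**Figure D4:**
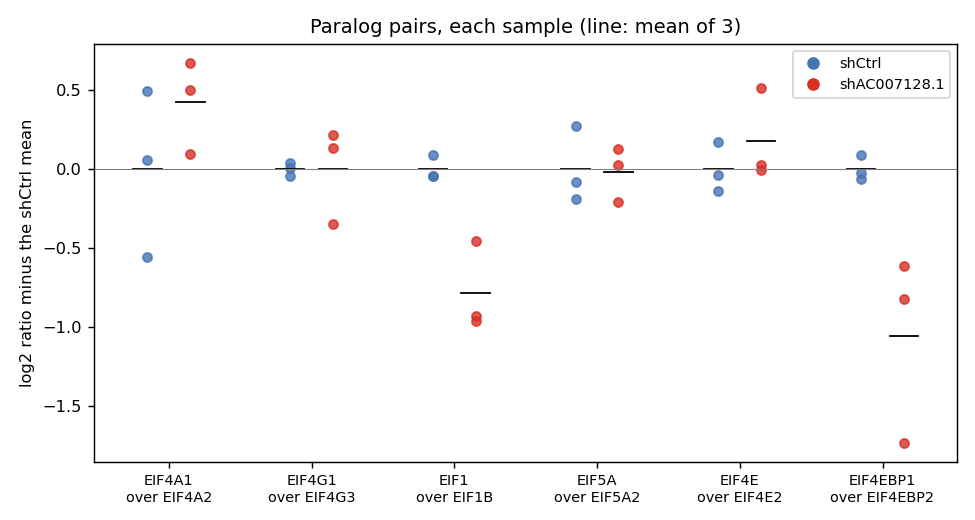
Log2 ratio of 2 paralogs in each sample, with the mean of shCtrl set to 0 (shCtrl blue, shAC007128.1 red, line at the mean of 3). The red points of EIF1 over EIF1B and of EIF4EBP1 over EIF4EBP2 lie under all blue points of their pair, with mean differences of -0.78 and -1.06.

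In the stretches of 250 bases before the start, 43 of the 51 members had a RefSeq window, and 8 had none (EIF2S2, EIF3A, EIF3CL, EIF3E, EIF3G, EIF3H, EIF3L and EIF4EBP1). Both strands were searched, and overlapping matches of different motifs were all counted. For members the RefSeq start nearest that of the transcript used for length was taken. The windows of all genes and of protein-coding genes used the first listed start of each gene. How far this unlike choice moved the shares was not tested. CACGTG was present in 11 of the 43 windows (25.6%), against 6.49% of all 27305 windows and 7.85% of the 15345 windows of protein-coding genes. It was held by 4 of the 14 higher members (EIF4E, EIF4G1, EIF4A3 and EIF5A2), by 0 of the 5 lower members with a window and by 7 of the 24 others. GGGCGG, the GC box, was in 31 windows (72.1%), against 42.3% of all and 56.7% of protein-coding ones. CCGGAAG, bound by ETS factors, was in 8 (18.6%, against 8.82% and 11.96%), and TATAAA, the TATA box, in 2 (4.65%, against 11.1% and 9.23%). TGATGNAA, the letters shared by elements that ATF4 and CEBP proteins bind, was in 1 window (2.33%, against 3.19% and 2.22%), that of EIF4E3. These matches are letters in a window and do not show binding. The windows of EIF3C and EIF4E3 lie 22906 and 3716 bases from the start of the transcript used for length.

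Genes that act on or beside the initiation factors were read from 5 further lists with 67 genes, of which 65 were tested. Of these, 18 were higher and 15 lower, and 2 and 5 were called with a fold of 2. Of all genes tested, 21% were higher and 19.8% lower, and 5.57% and 10.1% were called. In either direction 50.8% of the list genes passed, against 48.2% of protein-coding genes tested. Among the 14 eIF2 kinases, phosphatases and their targets, 3 were higher, 7 lower and 4 did not pass, with a median log2 fold change of -0.45. TRIB3, a pseudokinase that ATF4 induces, was measured at 381, 409 and 349 CPM in shCtrl and 82.4, 72.4 and 71.5 CPM in shAC007128.1 (log2 fold change -2.33 ± 0.09, adjusted p = 1.6e-05). DDIT3, which encodes CHOP, was measured at 68.3, 79.3 and 94.8 CPM in shCtrl and 13.9, 12.6 and 7.88 CPM in shAC007128.1 (log2 fold change -2.82 ± 0.23, adjusted p = 0.000143). Both were several times lower in each treated sample. CEBPG, a partner of ATF4, fell by 1.53 on the log2 scale (adjusted p = 4.89e-05). PPP1R15A (GADD34), which brings the phosphatase that removes phosphate from eIF2, fell by 1.81 (adjusted p = 0.000322). PPP1R15B and ATF4 are named after their values were seen. PPP1R15B moved the other way from PPP1R15A and rose by 0.33 ± 0.09 (adjusted p = 0.0188). ATF4 itself fell by 0.67 ± 0.08 (adjusted p = 0.000749). Of the 4 EIF2AK kinases, named after their values were seen, EIF2AK2 rose by 0.54 ± 0.06 (adjusted p = 0.000592). EIF2AK1, EIF2AK3 and EIF2AK4 had log2 fold changes of -0.15, -0.26 and 0.22 and did not pass. Without shAC007128.1 replicate 3 these 3 passed, at -0.22, -0.31 and 0.13 (adjusted p = 0.0148, 0.0226 and 0.0469, where the alternatives together ran up to 0.365, 0.169 and 0.229). EIF2AK3 passed in 8 of 17 alternatives, DESeq2 (0.0363) and limma-voom (0.0489) among them, and EIF2AK1 and EIF2AK4 in 2 each.

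Among the 17 mTORC1 and MNK regulators of cap-dependent initiation, 5 were higher, 1 lower and 11 did not pass, with a median of 0.28. RPTOR, the mTORC1 subunit that recruits substrates, was measured at 41.0, 41.4 and 39.0 CPM in shCtrl and 75.5, 63.0 and 55.7 CPM in shAC007128.1 (log2 fold change 0.68 ± 0.12, adjusted p = 0.00378). MTOR itself rose by 0.36 ± 0.07 (adjusted p = 0.0056) and RPS6KB1, one of the S6 kinases, by 0.64 ± 0.13 (adjusted p = 0.00592). The lower gene of this list was the other S6 kinase, RPS6KB2, named after its value was seen, which fell to 62.8% of shCtrl (log2 fold change -0.67 ± 0.14, adjusted p = 0.00813). Among the 17 other initiation and recycling factors, 6 were higher and 4 lower, with a median of 0.14. PAIP1, which helps the poly(A)-binding protein in initiation, was measured at 36.7, 32.7 and 34.4 CPM in shCtrl and 80.3, 70.8 and 81.0 CPM in shAC007128.1 and rose 2.23-fold (adjusted p = 0.000118). PABPC1L, a poly(A)-binding protein known from the oocyte, was measured at 168, 192 and 191 CPM in shCtrl and 73.6, 77.0 and 72.6 CPM in shAC007128.1 and fell to 40.5% of shCtrl (adjusted p = 4.88e-05). LARP4, which binds poly(A) and its binding protein, rose by 0.84 ± 0.10 (adjusted p = 0.00076).

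Among 15 tested of 17 elongation, termination and hypusination factors, 4 were higher and 2 lower, with a median of 0.07. EEF2, the translocase, fell to 71.6% of shCtrl (log2 fold change -0.48 ± 0.07, adjusted p = 0.00208), and EEF2K, the kinase that inhibits it, rose by 0.38 ± 0.08 (adjusted p = 0.00685). GSPT1, the release factor eRF3a, rose by 0.47 ± 0.10 (adjusted p = 0.00887). DOHH, which completes the hypusine of eIF5A, had a mean of 11.9 CPM in shCtrl and 24.1 CPM in shAC007128.1 (log2 fold change 1.02 ± 0.24, adjusted p = 0.0126). It was called as higher, with replicate 3 of shAC007128.1 closest to shCtrl. Without shCtrl replicate 3 its adjusted p was 0.0503 (range over all alternatives 0.000121 to 0.0503), and its value fell under a fold of 2 without that sample or without shAC007128.1 replicate 1 or 2 (0.96, 0.91 and 0.85). The 2 mitochondrial initiation factors had log2 fold changes of -0.38 ± 0.09 for MTIF2 (adjusted p = 0.0105) and -0.28 ± 0.10 for MTIF3 (adjusted p = 0.0567). MTIF3 passed in 8 of 17 alternatives, among them without shAC007128.1 replicate 3 (adjusted p over all alternatives 0.0124 to 0.165).

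**Figure D5:**
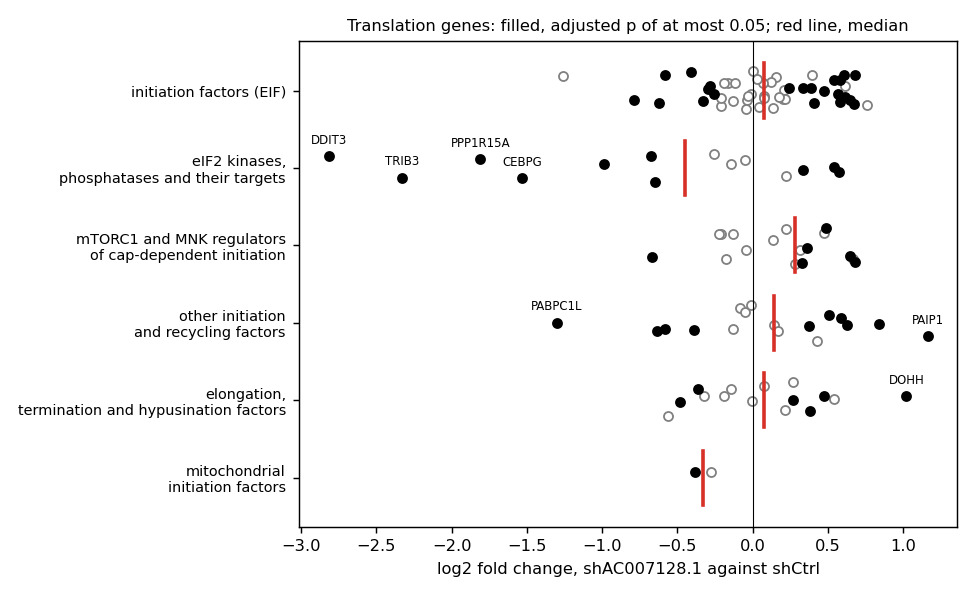
Log2 fold change of every tested gene in the initiation factor family and in the 5 further lists, filled where the adjusted p was at most 0.05, with a red line at each list's median. The genes past a fold of 2 with a passing p are named: 4 fell in the eIF2 kinase list, from -1.53 for CEBPG to -2.82 for DDIT3, and none lies in the EIF family.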

How the data were processed

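The authors cleaned the reads of rRNA, adapters and low quality, mapped them to hg38 with TopHat (TopHat2 2.0.6 and CASAVA 1.8 in the submitters' processing notes) and deposited estimated counts per Ensembl gene, whole numbers with no normalization. The counting program, annotation and strand use are not given in the sources used here. Low counts pile up at multiples of 4. The treatment label names shAC007128.1 for every sample, so groups come from the sample titles, and for the shAC007128.1 columns from the descriptions as well.

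Of 67140 identifiers 89.9% were found in GENCODE v44, which gave symbols, positions and lengths. The whole table was filtered (filterByExpr), scaled (TMM) and tested with edgeR 4.0.16 in R 4.3.3, with Benjamini-Hochberg adjustment over 19254 genes. The standard error is the log2 fold change over the root of F. Members passed at an adjusted p of at most 0.05 and were called with a fold of 2 as well. Paralog ratios used unscaled counts with a prior count of 0.5 added to each. Depths were 55764405 to 78610457 counts per sample, and the level of 3 counts covers counting error only. Steps were tested on simulated data. Alternatives were DESeq2 1.42.0, limma 3.58.1 (voom), edgeR with the size factors of DESeq2, scaling by totals alone, filters of none or of 10 counts in each sample, a replicate block, GC content correction, both together, thinned libraries, glmTreat against a fold of 1.5 and each sample left out; counts divided by 4 were added after seeing the data. The members and lists were chosen with earlier results of these data known. Every member was named, with values in each sample for the 2 of each role with the smallest p and for the paralogs, and those of EIF1AD, EIF2S1, EIF3E, EIF3F, EIF3L, EIF3M and EIF4EBP3 after seeing them. Of the other lists, the 3 smallest p and all called genes were named.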

Additional observations from a re-analysis of the deposited data

How the results depend on the processing

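The counts of members that passed, 14 higher and 8 lower, stayed between 11 and 16 and between 7 and 10 in the 11 alternatives, glmTreat aside, that kept all samples. With 1 sample left out, they were 10 to 16 and 3 to 11, and the lower count was 3, 5 and 5 without shCtrl replicate 1, 2 and 3. The counts of called members were 0 in every alternative. With glmTreat, which tests against a fold of 1.5, 0 members passed as higher and 0 as lower, with no limit at a fold of 2. The median log2 fold change of members, 0.076, was 0.0043 with library size only and 0.0327 with no filter, where the median of all genes was -0.098 and -0.149 instead of -0.024. It was 0.0586 to 0.119 with 1 sample left out. The cause of these shifts was not tested. The other 5 lists had 13 to 21 higher and 13 to 21 lower genes. Of the 16 passing genes of these lists that were followed through the 17 alternatives, 15 passed in every one as well, the exception being DOHH. RPS6KB2, PPP1R15B and ATF4 were not followed in this way.

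Of the single members' log2 fold changes under the alternatives, 741 kept their direction and side of the threshold, 45 lost the call, 23 gained it and 21 changed sign, the last all in members that had not passed. With library size only, EIF2B3 was at -0.0355, EIF2B1 at -0.0438 and EIF3C at -0.00903. With no filter, EIF2B3 was at -0.00359 and EIF2B1 at -0.0138, and under a minimum of 10 counts in each sample EIF2B1 was at -0.00395. With GC content correction, EIF2B5 was at 0.0278, EIF4H at 0.00861 and EIF6 at 0.0742. EIF3F was at 0.0012 with limma-voom and 0.00822 in thinned libraries.

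With 1 sample left out, the ranges were -0.0145 to 0.0747 for EIF2B1, -0.0251 to 0.179 for EIF3G, -0.231 to 0.221 for EIF3F, -0.126 to 0.0800 for EIF4H and -0.054 to 0.0199 for EIF4B. The paralog ratios kept their sign except EIF4G1 over EIF4G3 (0.000506 in thinned libraries, -0.11 to 0.174 with 1 sample left out) and EIF5A over EIF5A2 (0.00266 and -0.114 to 0.117), whose differences were near 0.

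Replicate numbers are shared by the groups, but same-numbered samples did not deviate together (correlations 0.0306, -0.0254 and -0.0299). Whether they shared a culture or a preparation was not tested. With the replicate block, 12 members were higher and 7 lower, and EIF3L, EIF4A2 and EIF5B did not pass. The block left the median at 0.0756. With the block and GC content correction together, 13 were higher and 9 lower, the median was 0.0834, EIF2B5 was at 0.0283 and EIF6 at 0.0739.

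With 3 samples a group and 1 hairpin, effects of the hairpin sequence and of the lncRNA cannot be told apart. Depth limits most EIF4E1B, EIF2S3B, EIF4EBP3 and EIF5AL1, whose counts were low. Reads shared by overlapping or near-identical genes limit EIF4A1, EIF3L, EIF3C and EIF3CL. mRNA levels say nothing of protein or phosphorylation.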
